A study of Mus musculus with 15 samples.

Results

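In mouse bone marrow-derived macrophages (BMDM), 176 genes were expressed at a higher level in cells given lipopolysaccharide (LPS) and NZM than in cells given LPS alone and in vehicle-treated cells. They were taken from 56979 Ensembl identifiers. A gene was a member when its mean in LPS_NZM was at least 5 TPM and its log2(group mean TPM + 1) lay at least 1 above that of LPS and at least 1 above that of Control. TPM is a length-corrected share of a library's transcripts, scaled to the same total in each, so levels can be compared between genes. Of 191 genes that met these values, 15, most of them usual markers of alternative activation (Arg1, Retnla, Chil3, Mrc1, Mgl2, Clec10a, Ccl24, Cdh1, Tmem26, B3gnt7, Batf3, Egr2, Pdcd1lg2, Cish and Clec7a) were left aside by name. The members were thus chosen by the mean TPM of the 9 BMDM libraries, so their BMDM values are a description without a test, and the size of the differences in BMDM supports nothing. Only the BMSC libraries, which the choice did not use, were tested.

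The groups were LPS_NZM (treatment LPS+NZM), LPS and Control (vehicle) in BMDM, and Aged_NZM (treatment H2HO+NZM) and Aged (H2HO) in BMSC, with 3 libraries each. All cells came from wild-type mouse bone marrow, NZM followed pretreatment with the model drugs, and the labels give no age, dose or time and explain neither NZM, H2HO nor BMSC. They do not say what a replicate is, and a p-value here measures the spread among these libraries alone, possibly technical. No library of the series came from cells given NZM alone or from BMSC given vehicle alone. An effect of NZM by itself therefore cannot be told apart from one that needs the pretreatment.

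Macrophages change their genes with the signals they receive. LPS, part of the bacterial outer membrane, acts through TLR4 and NF-kB and brings on inflammatory genes, while interleukin-4 and interleukin-13 act through STAT6 and bring on a programme called alternative activation, of which Arg1, Retnla and Mrc1 are the usual markers. Genes of that programme cover uptake of material, lipid mediators, amino acid metabolism and transcription factors such as IRF4.

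The 10 macrophage markers summed to between 22615 and 23139 TPM in LPS_NZM, 23198 to 23411 TPM in LPS and 27045 to 29442 TPM in Control. Most of each sum was Lyz2, which averaged 17530, 16306 and 22620 TPM, so the sums mainly follow that gene. Single markers moved in both directions. In LPS_NZM, 1 lay at least 1 above LPS on the log2 scale (Csf1r) and 2 at least 1 below it (Cd14 and Fcgr1). Against Control the counts were 0 and 3. Transcripts of other cells were also present. The 12 neutrophil markers summed to between 2389 and 2802 TPM in LPS_NZM, 4191 to 4410 TPM in LPS and 1767 to 1964 TPM in Control, and the 10 stromal markers to between 2433 and 3247 TPM over the 9 libraries. In these bulk samples, more cells of a type and more RNA per cell cannot be told apart. The mast cell and basophil sum varied from 20.1 to 539 TPM among the Control libraries, but that list held no member. Without Control replicate 3, the control library with the fewest identifiers above 0, 173 of the members were still selected and 3 were lost. Fewer were kept without Control replicate 1 (171) or Control replicate 2 (167).

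Over the members, LPS_NZM lay above LPS by a median of 2.14 on the log2(group mean TPM + 1) scale (range 1.02 to 5.23) and above Control by 1.46 (range 1.01 to 4.804). Over the 14486 genes with at least 1 TPM in at least 3 BMDM libraries, of which 173 were members, the same medians were 0.40 and -0.07. Every LPS_NZM library lay above every LPS library in 172 members (62.2% of all genes tested) and above every Control library in 169 (21.9% of all genes tested), as the choice of members favours. A difference of at least 1 above LPS was met by 15.1% of all genes tested, one above Control by 2.78%, and the whole rule by 1.3%. The smaller of the differences was that against Control in 142 members and that against LPS in 34. It is the one against Control wherever LPS lies at or under Control, as it did in most genes tested. Over these genes LPS minus Control had a median of -0.49 and an upper quartile of -0.09, so the count is not particular to the members. The smaller difference was at least 2 in 28 members and at least 3 in only Msx3, Flt1 and Gatm. Just inside the threshold were Moap1 at 1.01, Fcgr3 at 1.01 and Inpp5a at 1.02, and just outside it were Zfp874a at 0.996, Cltc at 0.995 and Cd83 at 0.987. By level, the members just inside were Moap1 at 5.37 TPM, Pla2g5 at 5.63 TPM and Gm9790 at 5.64 TPM, against 4.95 TPM for 6430531B16Rik, 4.85 TPM for Gm26165 and 4.79 TPM for Ciita just outside.

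**Figure D1:**
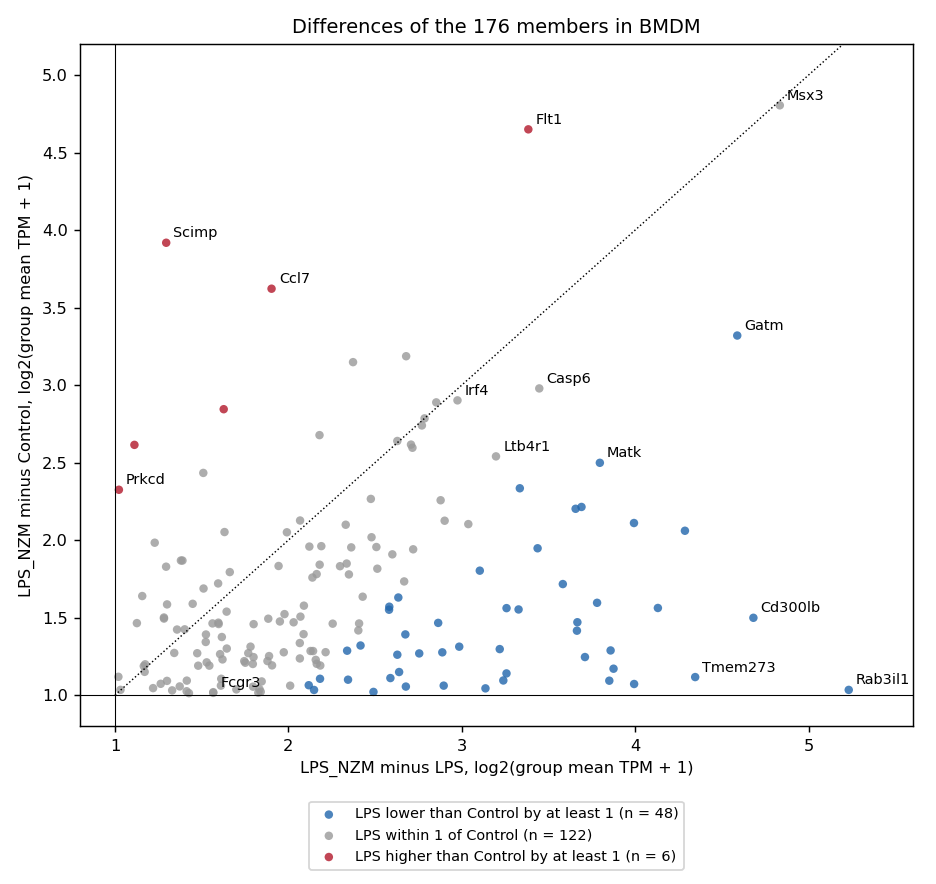
Each point is 1 of the 176 members, placed by its difference between LPS_NZM and LPS (x axis) and between LPS_NZM and Control (y axis), both on the log2(group mean TPM + 1) scale, with colour for the level in LPS against Control and a dotted line where both differences are equal. Most points lie below the dotted line, Msx3 and Flt1 lie highest on the y axis, and Rab3il1 lies farthest right at 5.23 while only 1.03 above Control.

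Mean levels in LPS_NZM ran from 5.37 to 1559 TPM, with a median of 52.3 TPM. The members above 1000 TPM, named after their values were seen, were 5: the chemokine gene Ccl7, the clathrin light chain gene Clta, the Fc receptor gene Fcgr3, the sorting nexin gene Snx5 and the kinase gene Prkcd. At the other end, 8 members were under 1 TPM on average in both LPS and Control, among them Msx3, Il31ra, Scn3a and Rnase2a. The libraries of a group differed little for most members, with a median coefficient of variation of 3.74% in LPS_NZM, 7.52% in LPS and 5.78% in Control. By annotation 164 of the members encode proteins. They were sorted by hand, after their values were seen, into 16 kinds by what the products do.

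The promoters of 138 members were found in RefSeq (build GRCm38.p6), as 177 windows of 300 bases that run from 250 bases before a gene's start to 50 after it. Motifs were looked for on both strands as letters, and these matches are descriptions of the letters only. The letters TTC and GAA with 4 bases of any kind between them, the spacing that STAT6 prefers, were in 9.60% of the member windows and 6.95% of all 32851 windows, and TTCNNNGAA, the spacing of other STAT factors, in 6.21% and 8.30%. The E-box CACGTG was in 12.4% of the member windows and 7.15% of all, the NF-kB-like GGGNNTTCC in 9.60% and 5.82%, the AP-1-like TGANTCA in 7.91% and 7.81%, the interferon-type pair of GAAA with 2 bases of any kind between in 3.95% and 3.44%, and the CREB-type TGACGTCA in 2.82% and 1.79%. The nuclear receptor repeat, AGGTCA written 2 times with 1 base of any kind between, was in 0% of the member windows and 0.0396% of all. Counted per gene, for the 138 members and the 10044 genes tested in BMDM with a window, the shares were 10.9% and 6.701% for the STAT6 spacing, 7.25% and 8.41% for the other STAT spacing, 14.5% and 11.6% for CACGTG, 11.6% and 8.61% for GGGNNTTCC, 10.1% and 6.68% for TGANTCA, 4.35% and 4.02% for the interferon-type pair, and 3.62% and 3.45% for TGACGTCA. The size of a difference from the background thus depended on the way of counting. Matches can overlap one another. The windows of 5 members that the results turn on are printed on the gene's strand, with matches to any of these 8 motifs in capitals. Msx3 and Irf4 are shown as the transcription factor genes with the largest differences, Flt1 as the receptor gene with the largest, and Itgax and Dhrs3 as genes with a match of the STAT6 spacing.
Msx3 (chr7:140049039-140049338, minus strand): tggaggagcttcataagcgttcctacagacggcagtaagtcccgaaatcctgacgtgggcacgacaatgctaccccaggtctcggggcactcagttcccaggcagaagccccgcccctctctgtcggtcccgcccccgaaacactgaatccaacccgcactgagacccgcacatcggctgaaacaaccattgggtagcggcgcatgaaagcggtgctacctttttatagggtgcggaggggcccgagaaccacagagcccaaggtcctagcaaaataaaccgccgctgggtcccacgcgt
Irf4 (chr13:30748983-30749282, plus strand): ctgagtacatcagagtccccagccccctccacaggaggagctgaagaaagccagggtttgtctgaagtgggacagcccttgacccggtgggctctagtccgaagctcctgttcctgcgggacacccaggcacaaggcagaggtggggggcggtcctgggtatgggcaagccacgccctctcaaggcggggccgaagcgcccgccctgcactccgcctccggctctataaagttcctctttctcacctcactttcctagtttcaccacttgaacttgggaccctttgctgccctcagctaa
Flt1 (chr5:147725962-147726261, minus strand): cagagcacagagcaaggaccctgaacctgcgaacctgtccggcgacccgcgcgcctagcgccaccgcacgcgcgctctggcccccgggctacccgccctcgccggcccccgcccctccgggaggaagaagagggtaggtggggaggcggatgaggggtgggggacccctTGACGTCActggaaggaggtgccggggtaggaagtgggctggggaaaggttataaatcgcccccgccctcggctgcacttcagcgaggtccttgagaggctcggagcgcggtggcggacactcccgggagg
Itgax (chr7:128129300-128129599, plus strand): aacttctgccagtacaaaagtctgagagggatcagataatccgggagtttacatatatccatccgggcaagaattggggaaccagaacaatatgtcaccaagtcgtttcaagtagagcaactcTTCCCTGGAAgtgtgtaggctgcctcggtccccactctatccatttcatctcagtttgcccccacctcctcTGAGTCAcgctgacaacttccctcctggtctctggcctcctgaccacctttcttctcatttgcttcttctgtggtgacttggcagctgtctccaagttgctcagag
Dhrs3 (chr4:144892827-144893126, plus strand): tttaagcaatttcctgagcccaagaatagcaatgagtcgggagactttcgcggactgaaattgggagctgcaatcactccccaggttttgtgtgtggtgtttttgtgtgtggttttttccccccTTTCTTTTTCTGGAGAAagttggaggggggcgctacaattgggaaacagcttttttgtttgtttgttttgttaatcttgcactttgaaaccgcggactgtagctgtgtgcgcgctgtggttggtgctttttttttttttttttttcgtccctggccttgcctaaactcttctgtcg
The Msx3 and Irf4 windows held none of these letters. In the Flt1 window TGACGTCA stood 81 bases before the start. In the Itgax window TTCCCTGGAA stood 127 bases and TGAGTCA 56 bases before the start. In the Dhrs3 window TTCTGGAGAA stood 119 bases before the start and overlapped TTTCTTTTTC, a match on the opposite strand, at 126 bases.

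Among the 9 transcription factor genes, Msx3 (ENSMUSG00000025469), a homeobox gene known in the mouse from the dorsal neural tube, differed most. Msx3 read 32.8, 29.9 and 30.9 TPM in the LPS_NZM libraries, against 0.12, 0.14 and 0.13 TPM in LPS and 0.23, 0 and 0.23 TPM in Control. Its transcript was close to absent in both other groups and present in all LPS_NZM libraries, with differences of 4.83 against LPS and 4.804 against Control. Irf4 (ENSMUSG00000021356), the interferon regulatory factor needed for alternative activation, read 15.4, 14.5 and 13.6 TPM in the LPS_NZM libraries, against 1, 0.97 and 0.94 TPM in LPS and 1.48, 1.11 and 0.63 TPM in Control. The 6 libraries without NZM overlapped each other and all lay near 1 TPM. Bhlhe40, a basic helix-loop-helix repressor, averaged 119.6 ± 2.09 TPM in LPS_NZM, 27.8 ± 1.47 TPM in LPS and 26.6 ± 0.573 TPM in Control (SD, n = 3). Zbtb5, a zinc finger protein of the BTB family, averaged 34.4 ± 1.56 TPM in LPS_NZM, 11.4 ± 0.439 TPM in LPS and 9.997 ± 0.166 TPM in Control. In both genes LPS and Control differed little beside the level in LPS_NZM. The other members of this kind were Klf4, a Krüppel-like factor that works with STAT6 in macrophages (35.1, 11.99 and 13.96 TPM in LPS_NZM, LPS and Control), the ETS-family repressor Etv3 (107, 31.3 and 45.5 TPM), Id2, which blocks helix-loop-helix factors from binding DNA, the early response gene Egr1 and Zfp609. Of 23 tested genes in a list of alternative activation transcription factors, 4 were members (Irf4, Klf4, Bhlhe40 and Etv3), 10 lay at least 1 above LPS and 6 at least 1 above Control.

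The 8 cytokine and growth factor receptor genes held a set of subunits of the interleukin-1 and interleukin-6 receptor families. Flt1 (ENSMUSG00000029648), the receptor for VEGF-A and placental growth factor, read 53.4, 49.2 and 57.5 TPM in the LPS_NZM libraries, against 4.1, 4.15 and 4.38 TPM in LPS and 1.37, 1.05 and 1.08 TPM in Control. The 3 groups stood apart, with LPS above Control and LPS_NZM above both. Il31ra, the ligand-binding subunit for interleukin-31, read 5.24, 6.85 and 7.35 TPM in the LPS_NZM libraries, against 0.06, 0.19 and 0.04 TPM in LPS and 0.2, 0.16 and 0 TPM in Control. It was close to 0 in all 6 libraries without NZM, and its level in LPS_NZM was low. Il6st, which encodes gp130, the signalling subunit of the interleukin-6 family, averaged 216 ± 3.001 TPM in LPS_NZM, 40.1 ± 1.04 TPM in LPS and 80.4 ± 3.403 TPM in Control. Il1rap, the shared second chain of the receptors for interleukin-1, interleukin-33 and interleukin-36, read 72.9, 75.1 and 76.6 TPM in the LPS_NZM libraries, against 16.8, 16.1 and 14.3 TPM in LPS and 10.8, 11.4 and 10.4 TPM in Control. Its LPS libraries lay between those of LPS_NZM and Control. The binding chains Il1r1 (interleukin-1) and Il1rl2 (interleukin-36) were members at lower levels, with 8.91 and 14.4 TPM in LPS_NZM. Plxnd1, a plexin that binds semaphorins, averaged 227 ± 6.36 TPM in LPS_NZM, 51.4 ± 3.34 TPM in LPS and 57.7 ± 2.16 TPM in Control, and Plxdc2 was the remaining member. The endothelial markers, which hold the member Pecam1, summed to between 75.4 and 79.0 TPM in LPS_NZM, 36.3 to 40.5 TPM in LPS and 41.2 to 43.6 TPM in Control. Without Pecam1 the other 5 markers summed to between 20.75 and 20.96 TPM in LPS_NZM, 25.5 to 29.5 TPM in LPS and 28.3 to 29.6 TPM in Control. Of those 5, Emcn (13.6, 10.7 and 15.2 TPM on average in LPS_NZM, LPS and Control) was higher in LPS_NZM than in LPS, and Cdh5 (5.07, 5.86 and 7.14 TPM), Kdr (1.61, 10.1 and 5.44 TPM), Tek and Cldn5 (both under 1 TPM) were lower. In all 5 the mean was lower in LPS_NZM than in Control.

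**Figure D2:**
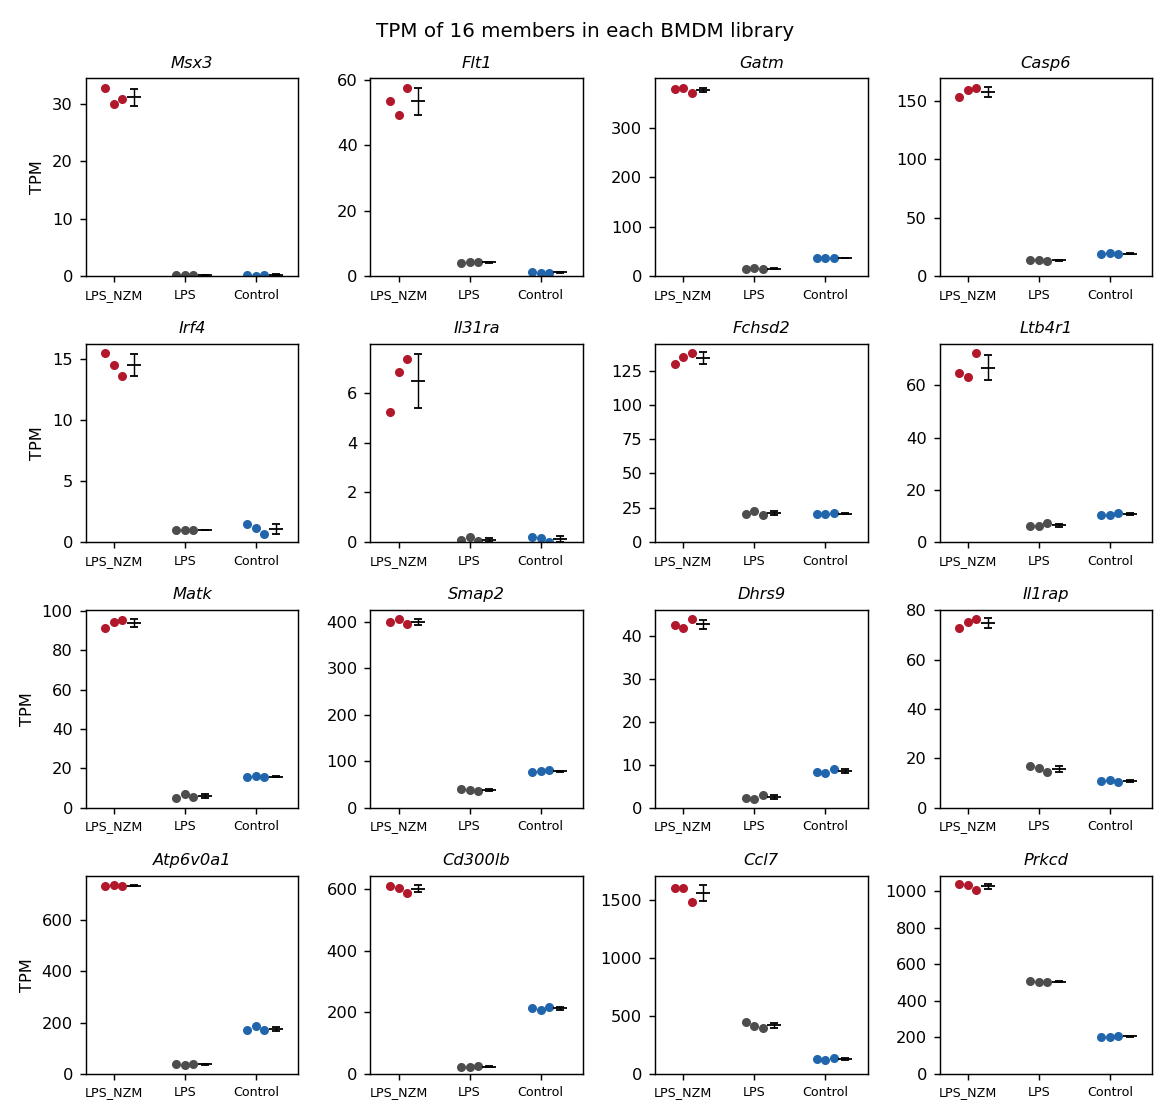
TPM of 16 members in each BMDM library (points, 3 per group) with the mean and SD beside them (bars), on axes that start at 0. In all 16 panels the LPS_NZM points lie above the others, and LPS lies below Control in genes such as Gatm, Atp6v0a1 and Cd300lb and above it in Flt1, Ccl7 and Prkcd.

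Receptors that couple to G proteins, with 1 G protein, made up 9 members. Ltb4r1, the high-affinity receptor for leukotriene B4, read 64.8, 63.3 and 72.4 TPM in the LPS_NZM libraries, against 6.04, 6.02 and 7.13 TPM in LPS and 10.4, 10.5 and 11.2 TPM in Control. Gna15, a G protein alpha subunit of blood cells that couples many receptors to phospholipase C, averaged 81.99 ± 3.39 TPM in LPS_NZM, 15.5 ± 0.406 TPM in LPS and 18.4 ± 1.32 TPM in Control. The nucleotide receptors P2ry1 (for ADP) and P2ry6 (for UDP) averaged 14.6 and 462 TPM in LPS_NZM, 1.75 and 114 TPM in LPS, and 3.03 and 221 TPM in Control. Cxcr2, a receptor for neutrophil-attracting chemokines and itself a neutrophil marker, read 14.8, 16.2 and 15.5 TPM in the LPS_NZM libraries, against 2.52, 2.92 and 4.01 TPM in LPS and 4.03, 2.88 and 2.04 TPM in Control. The Cxcr2 libraries of LPS and Control overlapped. Of the 12 neutrophil markers, Cxcr2, Mpo, Retnlg, Elane, Mmp8 and Ltf were higher on average in LPS_NZM than in LPS and 6 were lower, and 11 were higher than in Control. The neutrophil sum was highest in LPS mainly through Lcn2 (157, 1681 and 134.9 TPM in LPS_NZM, LPS and Control), and without Lcn2 it was between 2235 and 2634 TPM in LPS_NZM, 2495 to 2729 TPM in LPS and 1643 to 1827 TPM in Control. The part of neutrophils in the difference of Cxcr2 was not tested. The remaining receptors were Gpr65, which senses protons, Gpr39, which senses zinc, S1pr3, which binds sphingosine 1-phosphate, and Gprc5c. Of 31 tested genes in a list of such receptors in macrophages, P2ry1 and P2ry6 were the members. In this list 8 lay at least 1 above LPS (15.1% of all genes tested) and 12 at least 1 below it. The share of all genes at least 1 below LPS was not counted.

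Of the 14 leukocyte surface genes, several encode inhibitory or paired receptors. Ceacam19, a little studied member of the carcinoembryonic antigen family, read 12.2, 11.6 and 13.7 TPM in the LPS_NZM libraries, against 1.28, 0.84 and 1.19 TPM in LPS and 0.76, 0.36 and 0.32 TPM in Control. Pecam1, an adhesion protein of leukocytes, platelets and endothelium, averaged 55.9 ± 1.82 TPM in LPS_NZM, 11.5 ± 0.903 TPM in LPS and 13.6 ± 1.48 TPM in Control. Cd300ld and Cd300lb, receptors of the CD300 family, averaged 258 and 602 TPM in LPS_NZM, 22.9 and 22.5 TPM in LPS, and 66.2 and 212 TPM in Control. In both the LPS libraries lay far under Control, and reads of these related genes may be shared. H2-DMa, which with H2-DMb2 helps load peptides onto MHC class II, averaged 95.97 ± 4.23 TPM in LPS_NZM, 15.2 ± 2.05 TPM in LPS and 31.6 ± 2.17 TPM in Control. Itgax, the integrin CD11c, averaged 62.9 ± 1.31 TPM in LPS_NZM, 23.9 ± 0.592 TPM in LPS and 22.8 ± 2.11 TPM in Control, with the LPS and Control libraries overlapping. Inhibitory receptors were represented by Lair1, which binds collagen, and Cd200r1, which binds CD200. The other members were the low-affinity Fc receptor gene Fcgr3, the Toll-like receptor adaptor gene Scimp, Cd164, Ms4a3, Clec4b2 and H2-DMb2.

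Secreted proteins accounted for 13 members. Rnase2a, an eosinophil-associated ribonuclease, read 5.02, 6.07 and 6.59 TPM in the LPS_NZM libraries and was listed at 0 in all LPS and Control libraries. Its relative Ear2 read 67.5, 67.6 and 59.7 TPM in the LPS_NZM libraries, against 8.9, 12.2 and 14.4 TPM in LPS and 18.3, 15.04 and 14.8 TPM in Control. All LPS_NZM libraries lay above the rest in both genes, whose reads may be shared with near-identical copies. The eosinophil markers summed to between 36.8 and 46.4 TPM in LPS_NZM, 25.8 to 47.4 TPM in LPS and 31.0 to 35.3 TPM in Control. Of the 7, the chemokine receptor gene Ccr3 (27.9, 6.63 and 24.8 TPM on average in LPS_NZM, LPS and Control), Siglecf (1.64, 0.727 and 1.49 TPM) and Il5ra were higher in LPS_NZM than in LPS, while the granule genes Prg2 (10.5, 24.7 and 6.19 TPM), Prg3, Ear6 and Epx (0.253, 1.16 and 0.157 TPM) were lower. All 7 means were higher in LPS_NZM than in Control, and the part of eosinophils in these differences was not tested. Ccl7, a chemokine for monocytes, read 1599.5, 1599.7 and 1479 TPM in the LPS_NZM libraries, against 442, 411 and 396 TPM in LPS and 124, 119 and 135 TPM in Control. It was the most abundant member, and its LPS libraries lay between the other groups. Fam20c, the Golgi kinase that phosphorylates secreted proteins, averaged 680.4 ± 12.7 TPM in LPS_NZM, 111 ± 2.56 TPM in LPS and 181 ± 2.72 TPM in Control. The growth factor genes Hbegf and Pdgfa averaged 69.3 and 106 TPM in LPS_NZM, 21.5 and 13.8 TPM in LPS, and 23.2 and 37.9 TPM in Control. They were the only members among 20 tested growth factor genes, 9 of which lay at least 1 above LPS and 3 at least 1 above Control. Retnlg, a resistin-like gene of neutrophils, read 26.6, 19.2 and 14.4 TPM in the LPS_NZM libraries, against 1.42, 8.57 and 10.9 TPM in LPS and 6.67, 7.15 and 6.73 TPM in Control, with more spread in LPS than in Control. Coagulation proteins were represented by F7 (factor VII) and Proz (protein Z), and a further member was Tnfrsf11b, the decoy receptor osteoprotegerin that binds RANK ligand. Olfm1, Sema4b and Crispld2 completed the kind.

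The 23 kinases, phosphatases and adaptors were the most numerous kind. Matk, a kinase that restrains Src-family kinases, read 91.5, 94.3 and 95.4 TPM in the LPS_NZM libraries, against 4.99, 6.95 and 5.52 TPM in LPS and 15.7, 16 and 15.6 TPM in Control. Map3k12, the dual leucine zipper kinase known from neurons, averaged 41.3 ± 0.755 TPM in LPS_NZM, 2.28 ± 0.208 TPM in LPS and 8.13 ± 0.343 TPM in Control. In both the LPS libraries lay under Control without overlap. Fyn, a Src-family kinase, averaged 142 ± 0.67 TPM in LPS_NZM, 24.7 ± 0.123 TPM in LPS and 34.3 ± 1.99 TPM in Control, and Cables1, an adaptor that binds cyclin-dependent kinases, averaged 8.24 ± 0.546 TPM in LPS_NZM, 0.88 ± 0.549 TPM in LPS and 1.597 ± 0.138 TPM in Control. Negative regulators of receptor signalling included the ubiquitin ligase Cblb, the cytokine signalling suppressor Socs2, the docking protein Dok2 and the MAP kinase phosphatase Dusp4. Serine/threonine kinases were Plk2, Plk3, Pim3, Mapkapk3, Mink1, Nek6, Rps6kc1 and the protein kinase C isoform Prkcd, and phosphoinositides are made or cleaved by the products of Pip5k1c and Inpp5a. Akap7, Ppp2r3a, Bcar3, Pald1 and Tifab were the others.

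Membrane traffic held 18 members, many of them acting on endosomes. Fchsd2, an F-BAR protein that promotes actin assembly at sites of endocytosis, read 129.6, 135 and 138 TPM in the LPS_NZM libraries, against 20.2, 22.5 and 19.9 TPM in LPS and 20.5, 20.6 and 20.9 TPM in Control. LPS and Control overlapped, and all LPS_NZM libraries lay far above both. Smap2, a GTPase-activating protein for Arf, averaged 401 ± 6.16 TPM in LPS_NZM, 38.8 ± 2.43 TPM in LPS and 78.7 ± 1.53 TPM in Control, and Tbc1d16, one for Rab proteins, averaged 31.3 ± 1.19 TPM in LPS_NZM, 1.03 ± 0.125 TPM in LPS and 6.47 ± 1.08 TPM in Control. Rab19, a small GTPase, averaged 14.1 ± 0.792 TPM in LPS_NZM, 0.833 ± 0.122 TPM in LPS and 2.503 ± 0.508 TPM in Control. Sorting nexins Snx5, Snx6 and Snx29, the clathrin adaptor subunit Ap2m1, the clathrin light chain Clta, the endocytic scaffold Itsn2 and the phosphoinositide-binding proteins Plekhf1, Wdfy2 and Plekha3 were further members. Atp6v0a1, a subunit of the proton pump that acidifies endosomes, averaged 736 ± 2.102 TPM in LPS_NZM, 36.7 ± 1.08 TPM in LPS and 176 ± 7.89 TPM in Control and was chosen for description after its values were seen. Its level in LPS was the lowest and in LPS_NZM the highest of the 3 groups. Arl15, Sys1, the iron regulator Hfe and the Rab3 partner Rab3il1 completed the kind.

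The 10 members of the cytoskeleton and adhesion included the catenin Ctnnd2, which averaged 10.4 ± 0.588 TPM in LPS_NZM, 0.33 ± 0.0872 TPM in LPS and 2.28 ± 0.225 TPM in Control, and the scaffold protein Tanc2, which averaged 45.1 ± 2.36 TPM in LPS_NZM, 3.82 ± 0.44 TPM in LPS and 14.6 ± 0.832 TPM in Control; both are best known from neurons. Mcf2l, a guanine nucleotide exchange factor, averaged 19.96 ± 0.986 TPM in LPS_NZM, 2.95 ± 0.248 TPM in LPS and 6.61 ± 0.638 TPM in Control, and Rasal3, a GTPase-activating protein for Ras in blood cells, averaged 34.8 ± 1.38 TPM in LPS_NZM, 6.5 ± 0.824 TPM in LPS and 12.01 ± 1.73 TPM in Control. LPS lay under Control in each of these genes. The others were Baiap2, Myo1e and Lpxn, which link membrane or adhesion sites to actin, with Rhoh, Tuba8 and Aif1l.

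Of the 11 genes of lipid and retinoid metabolism, those of retinoids were both dehydrogenases. Dhrs9, which can oxidise retinol and sterols, read 42.4, 41.8 and 43.8 TPM in the LPS_NZM libraries, against 2.29, 2.09 and 3.01 TPM in LPS and 8.33, 8.14 and 9 TPM in Control. Dhrs3, which reduces retinal to retinol, averaged 282 ± 6.19 TPM in LPS_NZM, 18.6 ± 1.602 TPM in LPS and 132 ± 3.41 TPM in Control, so that LPS lay lowest in both. Lipn, a lipase known from skin, averaged 10.1 ± 0.835 TPM in LPS_NZM, 0.483 ± 0.205 TPM in LPS and 1.54 ± 0.433 TPM in Control. Abcg1, a cholesterol exporter, averaged 32.4 ± 1.05 TPM in LPS_NZM, 4.08 ± 0.193 TPM in LPS and 7.71 ± 0.763 TPM in Control and was the only member among 20 tested genes of sterol synthesis and LXR targets. Ggt5, which cleaves glutathione conjugates such as leukotriene C4, averaged 22.95 ± 0.267 TPM in LPS_NZM, 2.77 ± 0.03 TPM in LPS and 6.203 ± 0.266 TPM in Control. Ptgs1, the cyclooxygenase that starts prostaglandin synthesis, and the phospholipases Pla2g5, Pla2g12a and Pla2g15 also belong to lipid mediator and phospholipid pathways, as do the acyltransferases Lpcat1 and Agpat3. Of 22 tested genes of PPAR and fatty acid handling 0 were members, where 1.3% of all genes tested met the whole rule.

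Metabolic enzymes of amino acids, nucleotides and carbon made up 9 members. Gatm (ENSMUSG00000027199), the first enzyme of creatine synthesis, which uses arginine, read 379, 380.3 and 371 TPM in the LPS_NZM libraries, against 13.5, 15.5 and 15.1 TPM in LPS and 37.4, 37.1 and 36.01 TPM in Control. The 3 groups stood apart, with LPS lowest, and the differences were 4.59 against LPS and 3.32 against Control. Gatm was the only member among 20 tested genes in a list of polyamine, arginine and proline metabolism, which did not hold the member Azin2. Prps1, which makes the ribose donor for nucleotides, averaged 97.3 ± 2.38 TPM in LPS_NZM, 14.8 ± 0.806 TPM in LPS and 30.8 ± 0.896 TPM in Control. Azin2, an inhibitor of the antizymes that restrain polyamine synthesis, averaged 23.5 ± 1.51 TPM in LPS_NZM, 8.95 ± 1.76 TPM in LPS and 7.16 ± 0.864 TPM in Control. In purine breakdown, the guanine deaminase Gda and the xanthine oxidoreductase Xdh were both members. Further members were the acetyl-CoA synthetase Acss1, the mitochondrial form, with the sugar enzyme Galm and the aminoacylase Acy1.

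The 6 enzymes of the endoplasmic reticulum and Golgi were mostly glycan enzymes. Galnt6, which starts mucin-type glycans, averaged 185 ± 2.08 TPM in LPS_NZM, 33.6 ± 1.97 TPM in LPS and 59.04 ± 0.974 TPM in Control, and the disulphide isomerase Pdia4 averaged 661 ± 16.4 TPM in LPS_NZM, 109.7 ± 3.16 TPM in LPS and 225 ± 5.64 TPM in Control. St6gal1, which adds sialic acid, averaged 57.6 ± 2.21 TPM in LPS_NZM, 3.48 ± 0.696 TPM in LPS and 23.7 ± 1.54 TPM in Control, and the sulphotransferase Chst7 averaged 20.97 ± 2.13 TPM in LPS_NZM, 6.72 ± 1.501 TPM in LPS and 3.07 ± 0.336 TPM in Control. Chst7 was the only 1 of these 4 with LPS above Control. Ust, another sulphotransferase, and the mannosidase Man1a were the other members.

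Ion channels and transporters numbered 6. Scn3a, a voltage-gated sodium channel of neurons, read 6.8, 6.99 and 6.83 TPM in the LPS_NZM libraries, against 0.07, 0.1 and 0.1 TPM in LPS and 0.07, 0.09 and 0.03 TPM in Control. It was near 0 in all 6 libraries without NZM. The zinc exporter Slc30a4 averaged 41.8 ± 2.86 TPM in LPS_NZM, 12.7 ± 0.592 TPM in LPS and 16.4 ± 0.506 TPM in Control, the endosomal chloride and proton exchanger Clcn5 184 ± 9.09 TPM in LPS_NZM, 28.9 ± 1.94 TPM in LPS and 76.2 ± 4.22 TPM in Control, and Tmem206, the proton-activated chloride channel, 137 ± 4.88 TPM in LPS_NZM, 7.66 ± 0.383 TPM in LPS and 64.7 ± 2.64 TPM in Control. Tmem206 in LPS lay far under both other groups. The nucleoside transporter Slc29a2 and Tmem144 were at lower levels.

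RNA processing and translation held 12 members. Tarbp2, the RNA-binding partner of Dicer, averaged 145 ± 4.02 TPM in LPS_NZM, 31.3 ± 2.83 TPM in LPS and 39.8 ± 0.462 TPM in Control, and the splicing regulator Hnrnpll averaged 175 ± 5.61 TPM in LPS_NZM, 42.2 ± 2.66 TPM in LPS and 62.7 ± 1.09 TPM in Control. Rrp8, a nucleolar methyltransferase, averaged 112 ± 1.48 TPM in LPS_NZM, 21.3 ± 1.57 TPM in LPS and 45.2 ± 2.18 TPM in Control. Lars2, the mitochondrial leucyl-tRNA synthetase, read 164, 318 and 35.1 TPM in the LPS_NZM libraries, against 44.7, 55.3 and 32.2 TPM in LPS and 44.01, 55.03 and 43.9 TPM in Control. Its LPS_NZM libraries differed widely and overlapped both other groups. Zfp36l1, which marks AU-rich mRNA for decay, and Secisbp2l, Ctu2, Snrpg, Pcid2, Wdr46, Pde12 and Hemk1 were the rest.

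Cell death and ubiquitin ligases held 5 members. Casp6 (ENSMUSG00000027997), a caspase that cleaves lamins and has a part in inflammatory cell death, read 153, 159 and 161 TPM in the LPS_NZM libraries, against 13.96, 13.7 and 13.04 TPM in LPS and 19.2, 19.6 and 18.7 TPM in Control. All LPS_NZM libraries lay far above the rest, with differences of 3.45 and 2.98 against LPS and Control. The ubiquitin ligases March3, Rnf19b and Rnf180 averaged 40.9, 603 and 16.5 TPM in LPS_NZM. Moap1, which promotes cell death through BAX, was the lowest member and read 9.66, 4.47 and 1.98 TPM in the LPS_NZM libraries, against 1.75, 0.63 and 1.73 TPM in LPS and 1.56, 1.66 and 3.25 TPM in Control. Its LPS_NZM libraries spread widely, and they overlapped those of Control but not those of LPS.

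Among 9 little characterised proteins, Pxdc1 averaged 26.1 ± 1.84 TPM in LPS_NZM, 5.37 ± 0.215 TPM in LPS and 8.09 ± 1.11 TPM in Control, Pcyox1l, a relative of prenylcysteine oxidase, 27.7 ± 1.53 TPM in LPS_NZM, 3.497 ± 0.0681 TPM in LPS and 9.94 ± 0.841 TPM in Control, and the predicted methyltransferase Mettl27 10.8 ± 0.43 TPM in LPS_NZM, 1.7 ± 0.242 TPM in LPS and 3.84 ± 0.927 TPM in Control. Lrmp, a membrane protein of lymphocytes, averaged 120.1 ± 0.877 TPM in LPS_NZM, 7.35 ± 1.72 TPM in LPS and 48.6 ± 1.87 TPM in Control. In all 4 genes LPS lay under Control. Tmem273, named after its values were seen, averaged 168 ± 2.899 TPM in LPS_NZM, 7.297 ± 0.814 TPM in LPS and 76.8 ± 2.26 TPM in Control, with the LPS level again the lowest. Cnrip1, which binds the cannabinoid receptor, Hebp1, which binds heme, Tmem158 and Abtb1 completed the kind.

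The remaining 14 members were non-coding, pseudogene or predicted genes. Of these, Rpph1 (the RNA of RNase P), Mir8114, Gm9790, Gm44805 and Rps19-ps6 had LPS_NZM libraries that overlapped those of Control, as did Lars2 and Moap1. Mir8114, for example, read 0.25, 6.6 and 23.9 TPM in the LPS_NZM libraries, against 0.76, 0.25 and 2.51 TPM in LPS and 0.27, 0.27 and 0.27 TPM in Control, so that 1 library carried most of its mean. Gm19951 read 6.67, 6.41 and 5.01 TPM in the LPS_NZM libraries, against 0, 0 and 0.23 TPM in LPS and 0.44, 0 and 0 TPM in Control, without overlap. Mir8114 lies within Glul, Snord17 within the member Snx5 and Gm16201 opposite Adam8. In all, 86 members shared their span with another annotated gene and 35 with one of at least 1 TPM in LPS_NZM. Per the labels a stranded library kit was used, but whether the counting used strand is not given in the sources used here, so these values are uncertain. For related copies, such as Ear2, Rnase2a, Fcgr3, Snrpg and Gm8221, the reads could also be split.

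**Figure D3:**
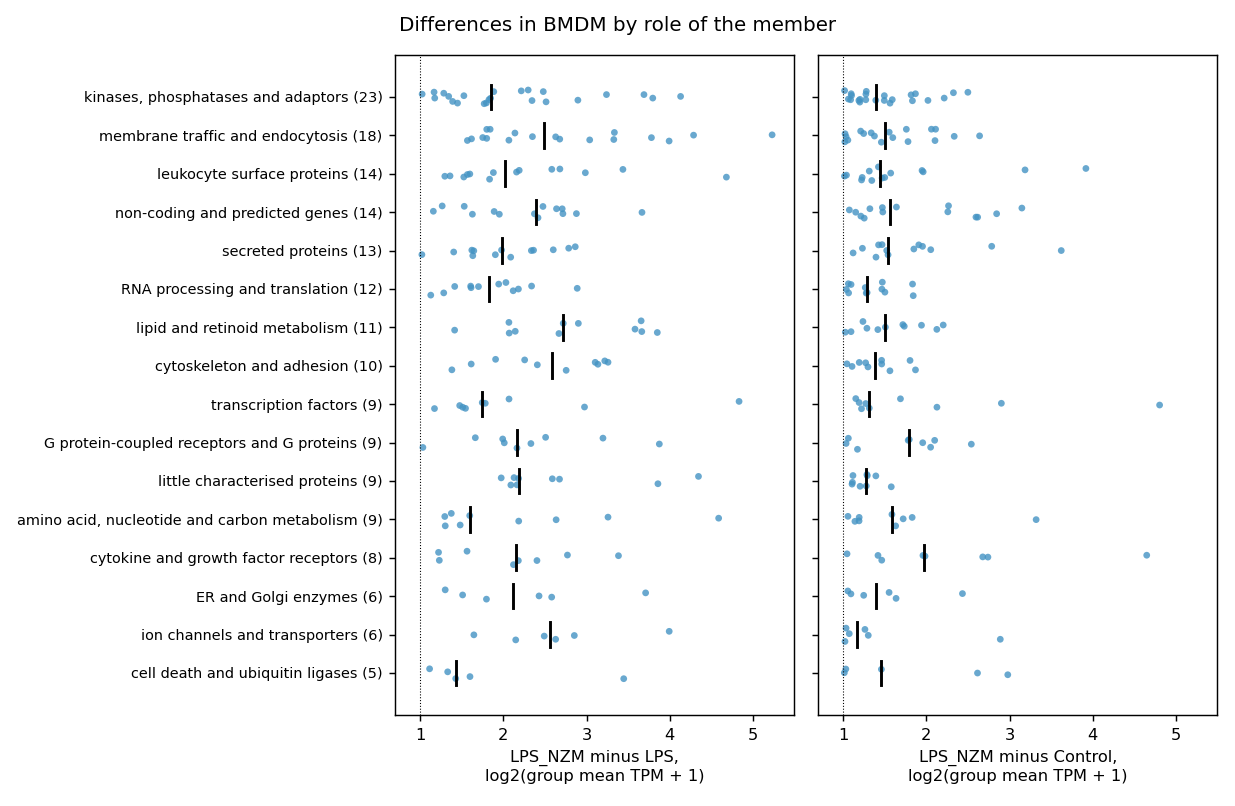
Differences of the 176 members by kind, against LPS on the left and against Control on the right, on the log2(group mean TPM + 1) scale. Points are genes, black bars are medians, numbers in brackets count the genes, and the dotted line marks the threshold of 1. The medians against LPS run from 1.43 for cell death and ubiquitin ligases to 2.72 for lipid and retinoid metabolism, and those against Control from 1.17 for ion channels and transporters to 1.97 for receptors of cytokines and growth factors.

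Of 33 tested genes in a list of IL-4 and STAT6 responsive genes, 15 lay at least 1 above LPS, 18 at least 1 above Control and 10 were members. These were Irf4, Flt1, Gatm, Il31ra, Matk, Ear2, Itgax, Olfm1, Ptgs1 and Klf4. The lists were written with earlier results of these data known, so the counts only describe. In the lists of cAMP and CREB targets (18 tested), glucocorticoid targets (14), TGF-beta targets (16), serine and one-carbon enzymes (11), cell fusion and osteoclast genes (19) and proliferation (19), 0 genes were members. The whole rule was met by only 1.3% of all genes tested, so a count of 0 in lists this short says little about them. The cAMP and CREB list had 0 genes at least 1 above LPS (15.1% of all genes tested) and 7 at least 1 below it. The share of all genes at least 1 below LPS was not counted, so the 7 cannot be set against a background.

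Against Control, LPS alone lay at least 1 lower in 48 of the members (27.3%, against 17.4% of all genes tested), at least 1 higher in 6 (3.41% against 7.1%) and between these in 122 (69.3% against 75.5%). The median difference between LPS and Control was -0.55 in the members and -0.49 in all genes tested. After centring each library on its median gene, 25 were lower by at least 1 (14.2%, against 4.75% of all genes tested) and 15 higher (8.52% against 12.2%). The LPS and Control means entered the choice of members, and the condition against LPS favours genes that are low in LPS. These shares therefore only describe the members. The 48 lower genes came from most kinds, and the lowest in LPS against Control was Rab3il1, at 159.5 TPM in LPS_NZM, 3.27 TPM in LPS and 77.4 TPM in Control. Tmem273, Cd300lb, Tmem206 and Dhrs3 had the same order, with LPS_NZM over Control and Control over LPS.

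The 6 members at least 1 higher in LPS than in Control were Flt1, Ccl7, Gm8221, Scimp, Rnf19b and Prkcd. For these, LPS_NZM lay above a level that LPS alone already had above Control. Scimp, an adaptor of Toll-like receptors, read 38.6, 32.99 and 33.98 TPM in the LPS_NZM libraries, against 11.8, 14.7 and 14.7 TPM in LPS and 1.59, 0.96 and 1.63 TPM in Control. The groups stood apart in the order LPS_NZM, LPS, Control. Prkcd read 1037, 1032 and 1008 TPM in the LPS_NZM libraries, against 507, 501 and 505 TPM in LPS and 202, 203 and 207 TPM in Control. It was just inside the threshold against LPS, at 1.02, and at 2.32 against Control. Rnf19b averaged 603 ± 13.4 TPM in LPS_NZM, 279 ± 7.13 TPM in LPS and 97.7 ± 0.704 TPM in Control. LPS libraries lay under all Control libraries in 119 members (67.6%, against 66.2% of all genes tested) and above them in 18 (10.2% against 15.6%). The choice of members bears on these shares too.

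Some members are neighbours in the genome. Among genes tested in BMDM and placed in order along the annotation, 19 of 173 members (10.98%) stood next to another member, against 317 of 14296 other genes (2.22%) that stood next to a member. The shares were not tested. The 10 pairs included Il1r1 with Il1rl2 (chromosome 1), Pla2g12a with Casp6 (chromosome 3), Fam20c with Pdgfa (chromosome 5), Proz with Pcid2 (chromosome 8), Il6st with Il31ra (chromosome 13), Map3k12 with Tarbp2 (chromosome 15), and H2-DMa with H2-DMb2 and Hnrnpll with Galm (both chromosome 17). None of these pairs overlapped. Il31ra and Il6st encode related receptor subunits, as do Il1r1 and Il1rl2, and H2-DMa and H2-DMb2 encode chains of the same complex.

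The comparison of Aged_NZM with Aged asks whether these genes also differed when NZM was given to other cells after another pretreatment. BMSC were given H2HO and BMDM were given LPS, so cell type and pretreatment cannot be told apart. Macrophage genes such as Adgre1 and Itgam were near 0 in them, while the 10 stromal markers summed to between 6309 and 6321 TPM in Aged_NZM and 2752 to 2856 TPM in Aged, all 10 being called higher. The part of that stromal shift in the members' changes was not tested. Of the members, 53 were under 1 TPM in all 6 BMSC libraries and 14 of these were listed at 0, and 116 could be tested. In BMSC, limma on log2(TPM + 1) with Benjamini-Hochberg adjustment over 13865 genes called 38 members higher in Aged_NZM (32.8% of those tested, against 21.6% of all genes) and 54 lower (46.6% against 48.9% of all genes). The members' median change was -0.10 and that of all genes -0.18. After centring each library on its median gene, 48 members were called higher and 42 lower, and over all genes 4318 higher and 4907 lower, against 2999 and 6775 without centring. Calls went in both directions, and a change of at least 1 was called in 5 members upward (3.66% of all genes) and 8 downward (4.2% of all genes). These 2 counts depended on the scaling. After centring, Zfp36l1, S1pr3 and Azin2 also rose by more than 1 (1.13, 1.12 and 1.11). Tmem144, Cd300lb, Wdr46 and Aif1l then fell by less than 1 (-0.963, -0.876, -0.876 and -0.863).

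The gene that rose most was Dhrs3, the retinal reductase, which read 11.6, 12.1 and 13.4 TPM in Aged_NZM, against 1.32, 2.38 and 1.28 TPM in Aged (log2 change 2.35, SE 0.15, limma adjusted p = 6.24e-07). Scn3a read 7.15, 7.93 and 7.91 TPM in Aged_NZM, against 1.84, 1.86 and 1.89 TPM in Aged (log2 change 1.596, SE 0.09, limma adjusted p = 2.19e-07). In both, all Aged_NZM libraries lay well above all Aged libraries. Plekhf1, an endosomal phosphoinositide-binding protein, rose by a log2 change of 1.16 (SE 0.05, limma adjusted p = 8.57e-08), and Socs2, which suppresses cytokine signalling, by 1.14 (SE 0.06, limma adjusted p = 1.86e-07). Il6st read 272, 285 and 281 TPM in Aged_NZM, against 149, 131 and 131 TPM in Aged (log2 change 1.02, SE 0.05, limma adjusted p = 1.56e-07), and Zfp36l1 rose by 0.97 (limma adjusted p = 5.49e-08). Azin2 rose by 0.95 (limma adjusted p = 2.43e-06). S1pr3 rose by 0.96 (limma adjusted p = 0.00019) at a level of only 1.82, 1.49 and 1.41 TPM in Aged_NZM and 0.33, 0.38 and 0.25 TPM in Aged.

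The gene that fell most was Dusp4, a phosphatase that switches off MAP kinases, which read 17.8, 17.4 and 17.8 TPM in Aged_NZM, against 90.9, 90.8 and 87.3 TPM in Aged (log2 change -2.28, SE 0.04, limma adjusted p = 5.14e-10). Plk3, a stress-response kinase, read 7.83, 7.71 and 7.36 TPM in Aged_NZM, against 27.3, 27 and 28.7 TPM in Aged (log2 change -1.73, SE 0.06, limma adjusted p = 1.07e-08). The groups lay far apart in both genes. Egr1, the early response transcription factor, read 20.1, 20.01 and 20.02 TPM in Aged_NZM, against 53.2, 51.8 and 50.4 TPM in Aged (log2 change -1.33, SE 0.04, limma adjusted p = 1.07e-08), and Ptgs1 read 40.5, 40.3 and 41.4 TPM in Aged_NZM, against 104, 101 and 97.3 TPM in Aged (log2 change -1.28, SE 0.04, limma adjusted p = 8.72e-09). Wdr46, a ribosome biogenesis protein, fell by 1.04 on the log2 scale (limma adjusted p = 3.28e-08), and Aif1l, an actin-binding protein, by 1.02 (limma adjusted p = 2.13e-06). Tmem144 and Cd300lb fell by 1.12 and 1.04 on that scale (limma adjusted p = 1.68e-05 and 5.03e-05), but Cd300lb was at only 0.55, 0.65 and 0.72 TPM in Aged_NZM and 2.14, 2.37 and 2.58 TPM in Aged.

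**Figure D4:**
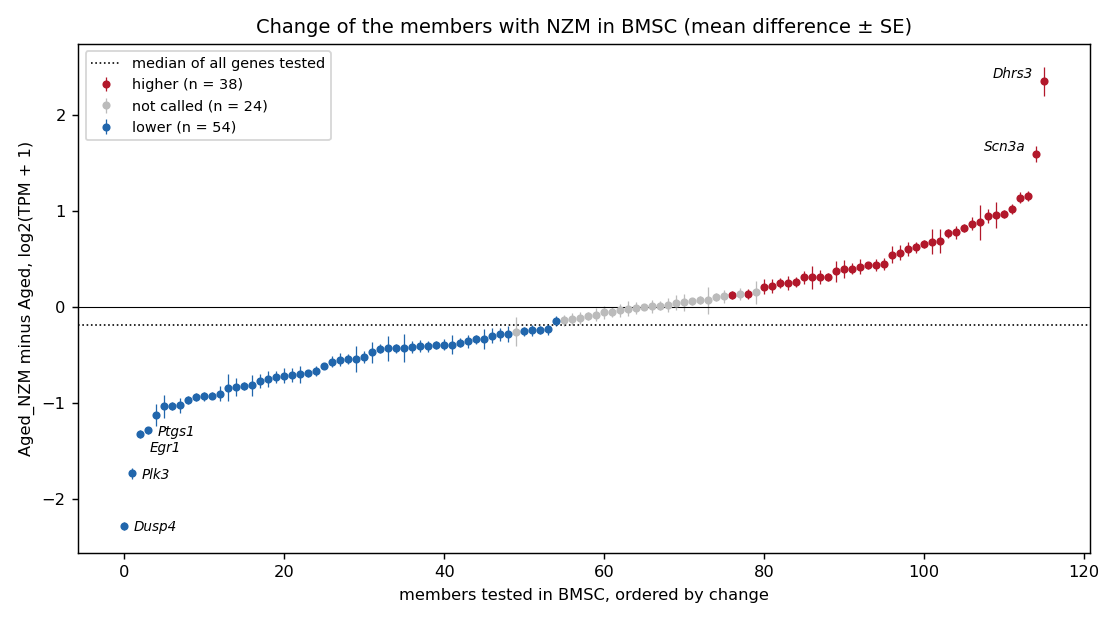
Change with NZM in BMSC (log2(TPM + 1), Aged_NZM minus Aged, mean difference with SE) of the 116 members tested, ordered by size and coloured by the limma call, with a dotted line at the median of all genes tested. The points run from -2.28 for Dusp4 to 2.35 for Dhrs3, with 38 called higher, 54 called lower and 24 not called.

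The kinds were sorted after the BMDM values were seen, and their counts are read beside the 21.6% higher and 48.9% lower among all genes tested (31.1% and 35.4% after centring). All 5 tested genes sorted as cytokine and growth factor receptors, with the plexin gene Plxnd1 counted among them, rose in BMSC. They were Il6st, Il1r1 (11.9, 12.1 and 12.7 TPM in Aged_NZM, against 6.16, 5.95 and 6.61 TPM in Aged), Il1rap (12.2, 13.3 and 14.8 TPM in Aged_NZM, against 8.19, 8.6 and 8.57 TPM in Aged), Plxnd1 and Plxdc2, with log2 changes from 0.45 to 1.02. In RNA processing and translation 9 of 12 fell and 2 rose, Zfp36l1 and Secisbp2l, and in ion channels and transporters 5 of 6 fell and Scn3a rose. Membrane traffic had 5 risen and 8 fallen of 17, kinases and adaptors 7 risen and 9 fallen of 19, and lipid and retinoid genes 4 risen and 5 fallen of 9, with shares that lay near those of all genes in several kinds. After centring the receptors were again 5 risen of 5, RNA processing and translation 3 risen and 8 fallen of 12, ion channels and transporters 1 risen and 4 fallen of 6, and membrane traffic 7 risen and 8 fallen of 17. Of 7 tested transcription factor genes Bhlhe40 rose and Etv3, Zfp609 and Egr1 fell. Of the members with the largest differences in BMDM, Msx3, Flt1, Gatm, Irf4, Il31ra and Matk were below the expression filter in BMSC, and Casp6 (log2 change 0.10, limma adjusted p = 0.0518) was not called. Ccl7 and Prkcd were also not called, at 0.01 and 0.01. In the list of IL-4 and STAT6 responsive genes 6 of 17 tested rose and 7 fell (7 and 6 after centring), and of its members Ptgs1 fell while Klf4 and Olfm1 were not called.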

How the data were processed

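Polyadenylated RNA of 15 mouse libraries had been sequenced. The authors deposited TPM for 56979 Ensembl identifiers, 1 column per library, with no pooling. Per the submitters' processing notes the tools were fastp, HISAT2, StringTie and RSEM on the build GRCm39, without versions or annotation. TPM sum to a fixed total, so the depth is unknown and no counting intervals are given. Shares depend on one another, and libraries were therefore also centred on their median gene. Symbols were found for 52072 identifiers and not for 4907. Biotypes and neighbours came from GENCODE M21 and promoters from RefSeq, both on GRCm38, an older build than that of the deposited values.

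Groups followed the sample names. The rule was applied to group means. BMSC were tested with limma 3.58.1 in R 4.3.3 on log2(TPM + 1) with a mean-variance trend, two-sided, for genes with at least 1 TPM in at least 3 of 6 libraries, with Benjamini-Hochberg adjustment and a threshold of 0.05. The pseudocount makes the change of low genes smaller than their fold. The procedure was tested on simulated data. Figures and counts used Python 3.11.15.

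The members and lists were chosen with earlier results of these data known. Members named with values were the first 20 by the smaller difference, up to 4 per list and kind, up to 8 per direction in BMSC, and those at the threshold. Values of 1 further member are not reported here. Others are said to be named after their values were seen. The 13 pathway lists and 10 marker lists are described by counts. Other marker sums, in TPM for LPS_NZM, LPS and Control, were 7.60 to 9.35, 25.8 to 33.9 and 5.76 to 16.8 (dendritic cell), 19.7 to 30.8, 9.87 to 15.6 and 20.1 to 32.0 (T and NK cell), 79.2 to 79.6, 59.6 to 92.4 and 47.3 to 54.2 (B cell), and 1105 to 1273, 896 to 962 and 1204 to 1331 (erythroid and megakaryocyte). None of these lists held a member. Alternatives were another pseudocount, filter, scaling, level and difference, no trend, all 15 libraries in the fit, a replicate block and leaving out each library.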

Additional observations from a re-analysis of the deposited data

Results flagged for a closer look

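In 8 members every LPS_NZM library lay above every LPS library in BMDM, while every Aged_NZM library lay below every Aged library in BMSC, with a called change of at least 1 there. The direction in BMDM is fixed by the choice of members. Over all genes tested in BMDM, 62.2% had LPS_NZM libraries above those of LPS without overlap. In BMSC 4.2% of all genes tested were called lower by at least 1. The difference between BMDM and BMSC, which also differ in pretreatment, was not tested. The log2 changes of Aged_NZM against Aged were -2.28 for the phosphatase gene Dusp4, -1.731 for the kinase gene Plk3, -1.327 for the early response gene Egr1 and -1.284 for the cyclooxygenase gene Ptgs1. They were -1.122 for Tmem144, -1.035 for Cd300lb, -1.035 for Wdr46 and -1.022 for Aif1l. After centring each library on its median gene, Tmem144, Cd300lb, Wdr46 and Aif1l were at -0.963, -0.876, -0.876 and -0.863, short of a change of 1. Cd300lb was under 1 TPM in all Aged_NZM libraries.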

How the results depend on the processing

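The rule selected 176 genes, 194 with a pseudocount of 0.1, 174 on means of logs, 169 after median centring (149 of them among the 176), 153 at a mean of at least 10 TPM and 66 at a difference of at least 1.5. Leaving out 1 BMDM library at a time gave 175 to 186, and 153 of the members were selected each time. Median centring gave 25 members lower and 15 higher in LPS than in Control, against 48 and 6, and leaving out 1 library gave 45 to 50 lower and 6 to 7 higher. Centring removes the shift of all genes, 0.40 for LPS_NZM minus LPS and -0.49 for LPS minus Control. In BMSC the members' median change of -0.10 turned to 0.06 after median centring (0.0582) and after quantile normalization (0.0629), and stayed between -0.0997 and -0.0539 without 1 library. Members called higher and lower were 33 to 37 and 48 to 54 without 1 library, 48 and 46 after quantile normalization, and 36 and 53 with a replicate block. Over all genes the counts were 2661 to 3037 and 6248 to 6505 without 1 library, 4144 and 5169 after quantile normalization, and 2986 and 6702 with the replicate block. Same-numbered BMSC libraries did not deviate together (correlations across genes of -0.0198, 0.0145 and -0.0412), so the numbers were not taken as pairs. The 16 members named for their change in BMSC kept direction and call under every alternative in which they were tested. A call means an adjusted p under 0.05 at any size, and some of these changes crossed a size of 1 after median centring. Depth is unknown, so how far it limits the low members cannot be given.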
